A study of Homo sapiens with 18 samples.

Results

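Complement is a set of plasma and membrane proteins that tag particles for uptake, and 9 genes of it were followed here in the leukaemia line THP1 and its subclone B11. The 9 genes, of 60658 gene IDs in the table, were CFP, CFD and C3 (components), C3AR1, C5AR1 and CR1 (receptors), and CD46, CD55 and CD59 (membrane regulators). They were taken by symbol, and CFP was selected on measured values, for its lower level when NRAS was induced. Its values in comparisons that hold B11 libraries are therefore a description with no test. THP1 was derived from an acute myeloid leukaemia with monocytic features and, per the labels, is heterozygous for NRAS G12D.

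B11 is 1 clone of THP1. Per the labels it holds a lentiviral, CRISPR-resistant and doxycycline-inducible NRAS G12V with GFP, and it also received Cas9, a puromycin resistance gene and a pair of guide RNAs on either side of the NRAS start codon. B11 is listed as heterozygous for NRAS G12V. Each line was kept for 5 days at 0, 1 or 10 ug/ml doxycycline in RPMI medium with serum, with 3 plates per dose (A, B and C), which gives 6 groups and 18 libraries of total RNA. THP1 at the same doses has no listed transgene and shows the response of the parent line to doxycycline alone. All plates of B11 came from 1 grown-out culture, so the p-values describe plate-to-plate spread and nothing beyond it. The labels name no promoter for the transgene beyond its induction by doxycycline.

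In the alternative pathway, the C3b fragment of C3 binds factor B, which factor D (the product of CFD) then cuts to form the C3 convertase. Properdin, the product of CFP, holds that convertase together and is made by myeloid cells, in contrast to most complement proteins, which are made by the liver. The small fragments C3a and C5a act on C3AR1 and C5AR1, while CD46, CD55 and CD59 protect the cell's own membrane.

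Levels are FPKM (fragments per kilobase of transcript, scaled for library depth), so that levels of different genes can be set side by side. A change is a difference of group means of log2(FPKM + 1) with its standard error (SE), which understates the change of genes with low values. Adjusted p-values are from limma with Benjamini-Hochberg adjustment over 17555 genes that reached 1 FPKM in at least 3 libraries. A gene was called at an adjusted p under 0.05. Of the 9 genes 8 passed this filter, and CR1 did not.

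The libraries differed 1.44-fold in relative depth by a rough estimate, and Pearson r between replicates, taken across genes, was 0.938 to 0.957. NRAS was at 19.81, 21.98 and 21.06 FPKM in untreated B11 and at 27.99, 27.73 and 28.16 at 10 ug/ml, a rise of 0.40 (SE 0.07, adjusted p = 0.000276), with transgene and edited gene not separable in this value. At 1 ug/ml NRAS was at 24.41, 23.71 and 23.27 FPKM. The difference from untreated B11 was 0.18 there (SE 0.07, adjusted p = 0.0607) and was not called. Of 10 monocytic markers, between 6 and 9 had a group mean of at least 1 FPKM in each group, and FCN1 was listed at 0 in 3 groups. Their summed level was 4072 to 5297 FPKM in B11 before treatment, 1438 to 1512 at 1 ug/ml and 1187 to 1232 at 10 ug/ml, against 1161 to 1550 in THP1. The summed levels of T cell, B cell, erythroid and epithelial markers stayed at or below 18.08 FPKM, and HBB was listed at 0 in all 6 groups. Among the B11 libraries at 1 ug/ml, 1 unnamed ID in plates B and C took 6.51% and 3.76% of the summed FPKM, and it was at most 1.95e-37 elsewhere. For genes named one by one, a call with that group that changes without both libraries is therefore given both ways.

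The components CFP, CFD and C3 were each lower in doxycycline-treated B11 than in untreated B11. Before treatment CFP and CFD were higher in B11 than in THP1, while C3 was lower. CFP lies on chromosome X, 47623172 to 47630305 on the minus strand of GRCh38. In untreated B11 its level was 240.7, 306.1 and 235.6 FPKM. At 1 ug/ml it was 64.13, 71.75 and 72.18, and at 10 ug/ml 11.92, 13.11 and 8.044. All libraries of each higher dose lay below all libraries of the lower dose. The ratio of mean levels was 3.76 between 0 and 1 ug/ml, 6.29 between 1 and 10 ug/ml and 23.7 over the whole range. The fitted differences were -1.89 (SE 0.14), -2.57 (SE 0.14) and -4.46 (SE 0.14). The summed monocytic markers given above were also highest in untreated B11, a sum made up mostly of LYZ (2781 ± 454 FPKM there) and CD68 (1400 ± 190). Of the 10 markers 8 had their highest B11 mean without doxycycline, and the other 2, CD14 and ITGAM, had it at 1 ug/ml. Among the 8, FCN1 was at 0.07575 FPKM in plate B of untreated B11 and at 0 in every other B11 library. SPI1 was at 305.4, 278.9 and 288.0 FPKM in untreated B11 and overlapped this range at 10 ug/ml (301.8, 281.5 and 281.7). The part of these markers in the levels of CFP, CFD and C3 was not tested. In bulk RNA fewer cells of a type and less RNA per cell cannot be told apart.

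The choice of CFP names its fall with NRAS induction, and in THP1, which has no listed transgene, its level was tested. The members were chosen with earlier results of these data known, so this test may not be independent of the choice. THP1 had 65.41, 67.14 and 65.48 FPKM untreated, 52.57, 58.28 and 58.1 at 1 ug/ml, and 35.48, 32.64 and 32.78 at 10 ug/ml. The 3 groups did not overlap, and the mean at 10 ug/ml was 1.96-fold lower than in untreated plates. CFP fell in THP1 by 0.95 at 10 ug/ml (SE 0.14, adjusted p = 0.00321), and this call held in all 16 alternatives, with adjusted p from 0.0027 to 0.0227. At 1 ug/ml the difference was -0.23 (SE 0.14, adjusted p = 0.954). The order of the lines therefore depended on the dose. B11 was 3.95-fold above THP1 in mean level without doxycycline, 1.23-fold above at 1 ug/ml and 3.05-fold below at 10 ug/ml, with no overlap between lines at any dose. The difference between the responses of the lines was -3.51 at 10 ug/ml and -1.66 at 1 ug/ml, given without a test.

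CFD was the most abundant of the 9 genes in every group. It lies on chromosome 19, 859643 to 863630 on the plus strand. Untreated B11 had 4187, 4530 and 4752 FPKM, the plates at 1 ug/ml had 886.3, 1073 and 1088, and those at 10 ug/ml had 771.9, 748.5 and 684.6. Most of the difference thus lay between 0 and 1 ug/ml, and the mean was 4.42-fold lower at 1 ug/ml and 6.11-fold lower at 10 ug/ml than in untreated B11. CFD fell by 2.15 from 0 to 1 ug/ml (SE 0.09, adjusted p = 8.6e-11) and by 2.61 from 0 to 10 ug/ml (SE 0.09, adjusted p = 1.1e-11). The step from 1 to 10 ug/ml was a fall of 0.46 (SE 0.09, adjusted p = 0.00291), which was not called without plates B and C at 1 ug/ml (-0.27, adjusted p = 0.223) and was called in the other 16 alternatives.

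THP1 had CFD means of 745 ± 34.1 FPKM untreated, 648.3 ± 57.4 at 1 ug/ml and 563.9 ± 39.4 at 10 ug/ml (SD, n = 3 plates). CFD in untreated B11 was 6.03-fold higher than in untreated THP1 (2.59, SE 0.09, adjusted p = 8.59e-12). At 10 ug/ml the B11 mean of 735 ± 45.1 lay within the range of the untreated THP1 libraries, 714.6 to 781.8. At matched doses it was still higher in B11, by 0.64 at 1 ug/ml (SE 0.09, adjusted p = 5.59e-05) and 0.38 at 10 ug/ml (SE 0.09, adjusted p = 0.00347). Within THP1 the difference at 10 ug/ml was -0.40 (SE 0.09, adjusted p = 0.0427). That call held in 7 of 16 alternatives, and adjusted p ranged from 0.0328 to 0.168. It was lost when any 1 of the 3 untreated plates, or plate A or B at 10 ug/ml, was left out. The fall of CFD in B11 exceeded that in THP1 by 2.21 at 10 ug/ml (SE 0.12, adjusted p = 7e-09) and by 1.94 at 1 ug/ml (SE 0.12, adjusted p = 2.9e-08).

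C3, the central protein of all 3 complement pathways, lies on chromosome 19, 6677704 to 6730562 on the minus strand. Its level in B11 was 59.21, 40.16 and 32.89 FPKM untreated, 18.76, 18.79 and 13.7 at 1 ug/ml, and 7.865, 8.172 and 10.86 at 10 ug/ml. The 3 doses did not overlap. THP1 held more C3 at each dose, with means of 84.77 ± 14.4, 84 ± 15.7 and 64.87 ± 10.5 FPKM. In B11 C3 fell by 1.29 at 1 ug/ml (SE 0.21, adjusted p = 0.000218) and by 2.15 at 10 ug/ml (SE 0.21, adjusted p = 1.18e-06). From 1 to 10 ug/ml it fell by 0.86 (SE 0.21, adjusted p = 0.0162), a call lost when plate A or B at 1 ug/ml, plate A or B at 10 ug/ml, or plates B and C at 1 ug/ml together were left out, with adjusted p from 0.0117 to 0.102 over 17 alternatives. In THP1 the differences of C3 were -0.01 (SE 0.21, adjusted p = 1) and -0.38 (SE 0.21, adjusted p = 0.589). The response of B11 was lower than that of THP1 by 1.27 at 1 ug/ml (adjusted p = 0.00584) and by 1.77 at 10 ug/ml (adjusted p = 0.00043).

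C3 was 1.92-fold lower in B11 than in THP1 without doxycycline, 4.92-fold lower at 1 ug/ml and 7.23-fold lower at 10 ug/ml. The log2 differences were -0.96 (adjusted p = 0.00187), -2.23 (adjusted p = 2.18e-06) and -2.72 (adjusted p = 2.17e-07). CFD and C3 thus differed between the untreated lines in opposite directions. The annotation places GPR108 across C3 on the same strand, and GPR108 was at 187.9 ± 21.1 FPKM in untreated B11 and 177.3 ± 25.5 at 10 ug/ml.

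**Figure D1:**
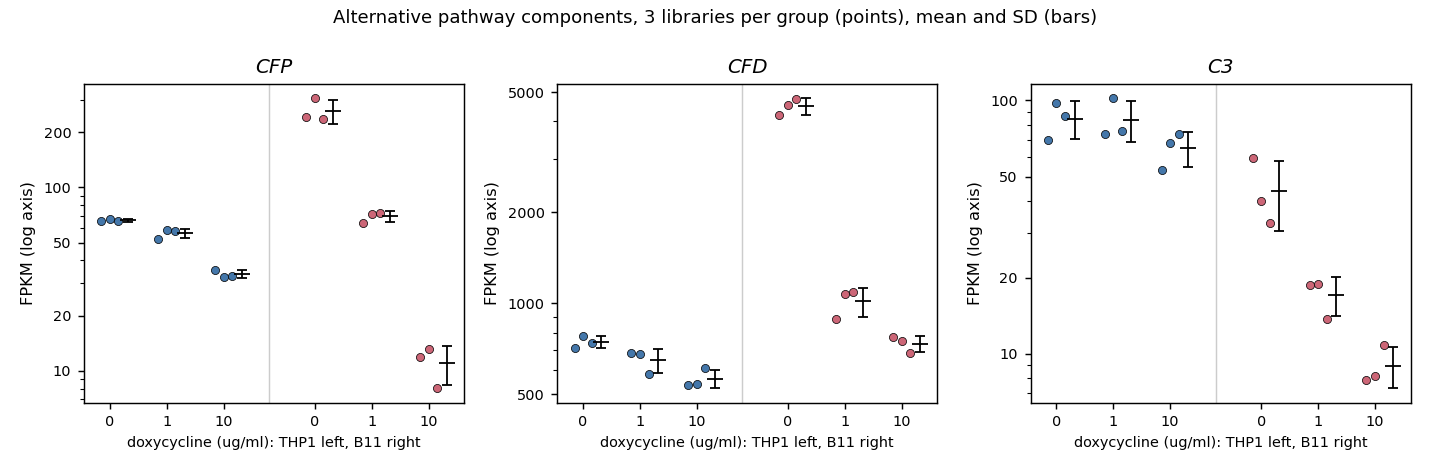
FPKM of CFP, CFD and C3 in each library (log axis), with THP1 in blue on the left and B11 in red on the right of each panel and doxycycline dose on the x axis. Black bars are the mean and SD of 3 libraries. In B11 all 3 genes stepped down with dose, CFP from a mean of 260.8 to 11.02 FPKM, while CFD in THP1 stayed between 539.1 and 781.8 FPKM.

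Promoter sequences are shown for CFP and CFD, the pair with the highest correlation of levels among the components, and for C3AR1 and C5AR1, the pair of receptors that moved together. They are from the RefSeq table on GRCh38.p14, in which 8 of the 9 genes were matched (C3 was not), and run 5′ to 3′ on the gene's strand. Each window spans 250 bases before and 50 bases after an annotated start, and only the part upstream of the start and outside exons of the gene in GENCODE is printed. Motifs searched on both strands were GAGGAA (PU.1 type), GGAAGT (ETS type), ATTGC (part of a C/EBP site), TGANTCA (AP-1), CACGTG (E-box) and GGGGGCG (EGR type), which can overlap one another. Capitals mark the matches. The CFP stretch (chrX:47630306-47630555, minus strand) has 250 bases and GGAAGT in reverse complement at -151 and -138 from the start. The CFD stretch (chr19:859414-859642, plus strand) has 229 bases and GGGGGCG in reverse complement at -47.
CFP: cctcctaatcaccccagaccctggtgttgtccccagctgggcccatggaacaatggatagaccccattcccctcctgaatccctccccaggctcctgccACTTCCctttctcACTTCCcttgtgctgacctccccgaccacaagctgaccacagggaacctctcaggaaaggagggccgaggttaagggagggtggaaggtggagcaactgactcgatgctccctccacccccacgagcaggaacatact
CFD: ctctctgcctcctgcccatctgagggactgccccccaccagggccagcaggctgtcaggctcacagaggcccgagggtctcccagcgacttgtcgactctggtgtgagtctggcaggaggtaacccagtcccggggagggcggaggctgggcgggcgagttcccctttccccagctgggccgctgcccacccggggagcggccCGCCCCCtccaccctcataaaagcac
Among 35116 windows of the table, 22.8% hold GGAAGT and 22.8% hold GGGGGCG, so that both matches are common. A match describes letters in the window and is not a measured binding site. A second CFP window, at a start further downstream, holds GAGGAA 3 times and GGAAGT 1 time in parts not printed, and 27.9% of windows hold GAGGAA.

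Of the receptors of the small fragments, C3AR1 and C5AR1 peaked in the B11 plates at 1 ug/ml. At 10 ug/ml their libraries overlapped those of untreated B11. C5AR2, the second C5a receptor, went the other way at 1 ug/ml. Its B11 means were 6.692, 2.976 and 2.261 FPKM over the doses, with no overlap between 0 and 1 ug/ml. C3AR1, the receptor of C3a, lies on chromosome 12, 8058302 to 8066471 on the minus strand. Its level in B11 was 0.9749, 2.26 and 0.5128 FPKM untreated, 6.15, 7.002 and 8.287 at 1 ug/ml, and 0.9977, 3.031 and 0.8235 at 10 ug/ml. The plates at 1 ug/ml lay above all other libraries of either line. C3AR1 rose by 1.92 from 0 to 1 ug/ml (SE 0.33, adjusted p = 0.000301), a 5.72-fold difference of means. From 1 to 10 ug/ml it fell by 1.73 (SE 0.33, adjusted p = 0.00318), and without plates B and C at 1 ug/ml (1 library remains, assumed to vary like the other groups) that difference was -1.55 and not called (adjusted p = 0.121).

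At 10 against 0 ug/ml the C3AR1 difference in B11 was 0.20 (SE 0.33, adjusted p = 0.672), and its sign changed with the library left out. THP1 had 1.567 ± 0.487 FPKM untreated, 1.274 ± 0.68 at 1 ug/ml and 0.593 ± 0.0853 at 10 ug/ml. Neither THP1 difference passed. It was -0.21 for 1 ug/ml (SE 0.33, adjusted p = 0.995) and -0.67 for 10 ug/ml (SE 0.33, adjusted p = 0.512). The rise at 1 ug/ml was larger in B11 than the THP1 difference by 2.13 (SE 0.47, adjusted p = 0.00349).

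C5AR1, the receptor of C5a, lies on chromosome 19, 47290023 to 47322066 on the plus strand. B11 had 0.6368, 1.071 and 0.4183 FPKM untreated, 4.105, 3.496 and 3.99 at 1 ug/ml, and 0.5946, 0.624 and 0.4207 at 10 ug/ml. The plates at 1 ug/ml again stood above every other library. C5AR1 rose by 1.52 at 1 ug/ml (SE 0.17, adjusted p = 5.48e-06), 5.45-fold in mean level, and fell by 1.65 from 1 to 10 ug/ml (SE 0.17, adjusted p = 2.06e-05). Both calls held in all 16 alternatives that tested the gene, and its difference at 10 against 0 ug/ml was -0.13 (SE 0.17, adjusted p = 0.587).

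C5AR1 in THP1 was at 0.9833 ± 0.197, 0.5982 ± 0.0742 and 1.185 ± 0.366 FPKM, and its differences were -0.31 (SE 0.17, adjusted p = 0.941) for the lower dose and 0.13 (SE 0.17, adjusted p = 0.864) for the higher. The B11 rise at 1 ug/ml exceeded the THP1 difference by 1.83 (SE 0.24, adjusted p = 5.45e-05). Both receptors reached 1 FPKM in at least 3 libraries outside B11 at 1 ug/ml, C3AR1 in 7 and C5AR1 in 4, so the filter did not depend on the group where they were highest. Of the 10 monocytic markers 2, CD14 and ITGAM, also had their highest B11 mean at 1 ug/ml. The other 8 had it without doxycycline, FCN1 and SPI1 by the small margins given above. Larger differences were those of LYZ (2781 ± 454 FPKM untreated and 448.5 ± 26 at 1 ug/ml) and CSF1R (174.2 ± 13.6 and 43.53 ± 4.81). CD14 had B11 means of 0.8411 ± 0.17 FPKM before treatment, 6.03 ± 0.345 at 1 ug/ml and 0.9762 ± 0.282 at 10 ug/ml. The part of these markers' cells in the receptor levels was not tested.

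**Figure D2:**
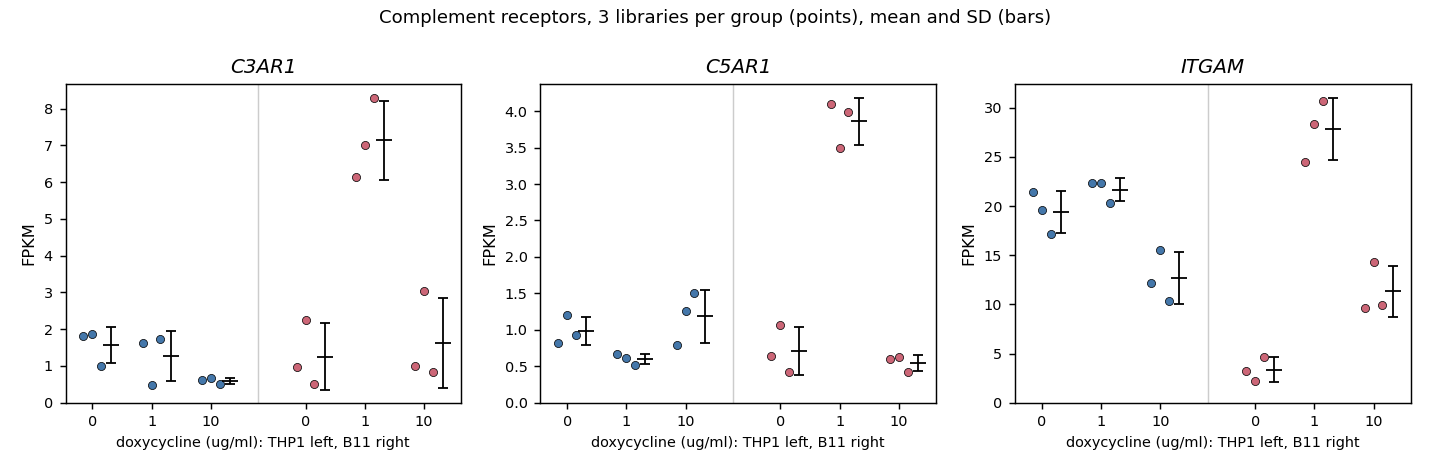
FPKM of C3AR1, C5AR1 and ITGAM in each library by doxycycline dose, THP1 in blue on the left and B11 in red on the right, with the mean and SD of 3 libraries as black bars. In B11 each gene was highest at 1 ug/ml, with means of 7.146, 3.864 and 27.85 FPKM.

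The C3AR1 stretch (chr12:8066472-8066609, minus strand) has 138 bases and TGANTCA at -133, and the C5AR1 stretch (chr19:47309611-47309860, plus strand) has 250 bases and GAGGAA in reverse complement at -201 and -56.
C3AR1: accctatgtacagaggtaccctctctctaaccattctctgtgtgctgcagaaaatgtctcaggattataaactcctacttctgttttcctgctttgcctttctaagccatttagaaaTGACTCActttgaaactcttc
C5AR1: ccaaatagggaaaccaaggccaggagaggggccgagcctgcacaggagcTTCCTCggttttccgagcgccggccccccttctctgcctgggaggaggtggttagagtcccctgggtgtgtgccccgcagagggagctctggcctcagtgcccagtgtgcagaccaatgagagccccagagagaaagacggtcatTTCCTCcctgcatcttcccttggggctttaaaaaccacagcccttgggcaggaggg
The receptors shared none of these matches in the printed parts. TGANTCA was held by 7.71% of all windows.

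CR1, the receptor of C3b on blood cells, lies on chromosome 1, 207496147 to 207641765 on the plus strand. CR1 stayed between 0 and 0.4081 FPKM and was listed at 0 in 2 libraries, both of B11. Group means were 0.2963 FPKM in untreated THP1 and 0.0184 in untreated B11, too low for the filter, so no test was made.

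Among the membrane regulators CD46 and CD59 were lower in treated than in untreated B11, and CD55 was higher in B11 than in THP1. CD46, a cofactor for the cleavage of C3b, was the most abundant of them and lies on chromosome 1, 207752057 to 207795513 on the plus strand. B11 had 131.6, 163.6 and 134.4 FPKM untreated, 106.5, 86.11 and 83 at 1 ug/ml and 91.85, 102.3 and 107.7 at 10 ug/ml. Both treated groups lay below the untreated group without overlap, and they overlapped each other. CD46 fell by 0.64 at 1 ug/ml (SE 0.11, adjusted p = 0.000325) and by 0.50 at 10 ug/ml (SE 0.11, adjusted p = 0.00188), the former not called without plates B and C at 1 ug/ml (-0.42, adjusted p = 0.0544) and called in the other 16 alternatives. THP1 means were 125.6 ± 13.7, 110.2 ± 5.37 and 110.6 ± 7.34 FPKM, and CD46 passed in neither THP1 comparison (-0.18, SE 0.11, at both doses, adjusted p = 0.956 and 0.629).

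CD59, which blocks the last step of the membrane attack complex, lies on chromosome 11, 33703010 to 33736491 on the minus strand. In B11 it was at 27.91, 24.65 and 34.44 FPKM untreated, 15.13, 13.53 and 19.19 at 1 ug/ml and 19.98, 19.43 and 19.76 at 10 ug/ml. The untreated plates were the highest. CD59 fell by 0.82 at 1 ug/ml (SE 0.20, adjusted p = 0.00405). It fell by 0.52 at 10 ug/ml (SE 0.20, adjusted p = 0.0453), a call that held in 6 of 16 alternatives, with adjusted p from 0.0283 to 0.17. Of the 6 libraries compared there, leaving out any 1 but plate B of untreated B11 lost it. CD59 in untreated B11 was 1.67-fold above untreated THP1 (0.73, SE 0.20, adjusted p = 0.00662), with THP1 libraries at 22.41, 12.53 and 17.05 FPKM. In THP1 the CD59 difference was 0.17 at 1 ug/ml (SE 0.20, adjusted p = 0.984) and -0.27 at 10 ug/ml (SE 0.20, adjusted p = 0.703). The responses of the lines at 10 ug/ml were not called different for CD59 (-0.25, SE 0.28, adjusted p = 0.545) or CD46 (-0.32, SE 0.16, adjusted p = 0.141).

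CD55, which speeds the decay of the C3 convertase, lies on chromosome 1, 207321376 to 207386804 on the plus strand. Unlike CD46 and CD59 it was called higher in B11 than in THP1 at each of the 3 doses. THP1 had 12.81, 15.05 and 12.58 FPKM untreated, 13.24, 12.12 and 14.47 at 1 ug/ml and 16.44, 17.48 and 15.1 at 10 ug/ml. B11 had 29.55, 33.14 and 27.29 untreated, 25.75, 26.07 and 26.43 at 1 ug/ml and 33.05, 35.34 and 36.08 at 10 ug/ml. Every B11 library was above every THP1 library, by 2.23-fold, 1.96-fold and 2.13-fold in mean level. The log2 differences were 1.10 (adjusted p = 2.33e-07), 0.93 (adjusted p = 4.3e-06) and 1.05 (adjusted p = 9.75e-07).

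Within B11 the difference of CD55 at 10 against 0 ug/ml was 0.21 (SE 0.10, adjusted p = 0.0891). That difference was called in 3 of 16 alternatives, both TPM rescalings and the fit without plate B of untreated B11. The step from 1 to 10 ug/ml was a rise of 0.40 (SE 0.10, adjusted p = 0.0121), lost without plate C at 10 ug/ml (adjusted p = 0.0506) or without plates B and C at 1 ug/ml (adjusted p = 0.153), and called in the other 15 alternatives. The responses of the lines differed by -0.05 (SE 0.14, adjusted p = 0.825) at 10 ug/ml, a sign that turned to 0.01 with values rescaled to TPM.

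**Figure D3:**
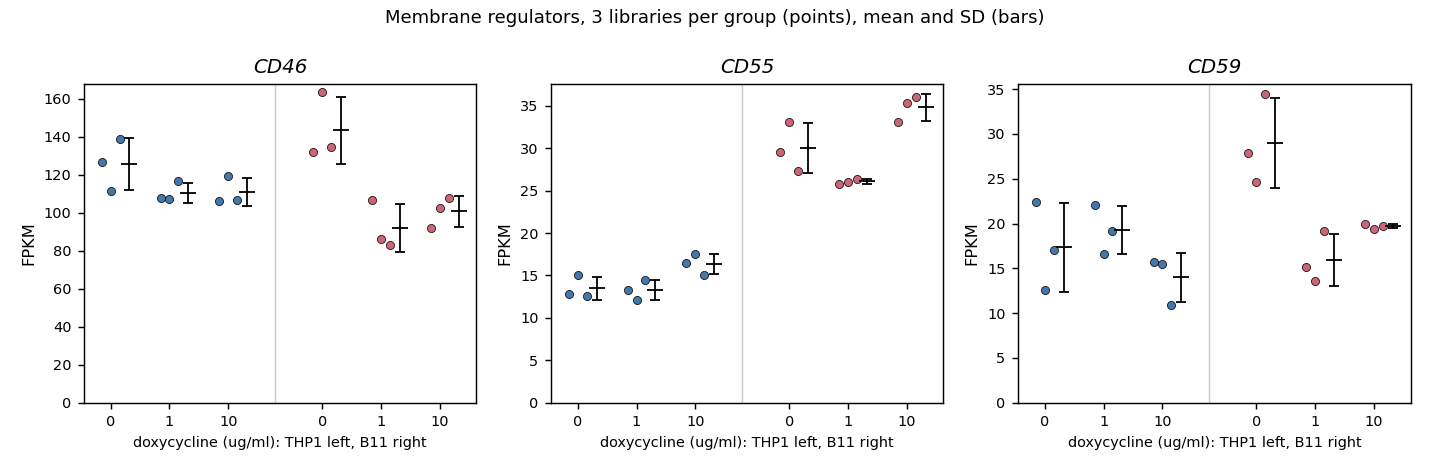
FPKM of CD46, CD55 and CD59 in each library by doxycycline dose, THP1 in blue on the left and B11 in red on the right, with the mean and SD of 3 libraries as black bars. CD55 was higher in B11 at all doses, 29.99 against 13.48 FPKM without doxycycline, and CD46 and CD59 were highest in untreated B11.

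Counted over the 7 tested genes other than CFP, at 10 against 0 ug/ml in B11 none was higher and 4 were lower (CFD, C3, CD46 and CD59), with a median difference of -0.50. Over all genes tested 21.6% were called higher and 21.3% lower, with a median of -0.02. At 1 against 0 ug/ml 2 were higher (C3AR1 and C5AR1) and 4 were lower, with a median of -0.64, against 19.8% higher and 17.3% lower of all genes and a median of -0.01. The split of all calls was 3472 higher to 3044 lower there, and 4100 to 2342 with values rescaled to TPM over named IDs. At 10 against 1 ug/ml 1 was higher (CD55) and 4 were lower (CFD, C3, C3AR1 and C5AR1), against 5.69% and 7.12% of all genes, and without plates B and C at 1 ug/ml 1 of the 7 (C5AR1) was called.

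In THP1, with CFP counted, 0 of 8 genes were higher and 2 were lower (CFP and CFD) at 10 against 0 ug/ml, against 0.0968% and 0.923% of all genes. The place of CFP in this count may not be independent of its choice. At 1 against 0 ug/ml limma called 0 of the 8 in either direction, and 1 had an unadjusted p under 0.05. All genes gave 0.00570% higher and 0.00570% lower at that dose, which is 1 gene each way, and 0 and 1 under each rescaling. No other tool was run on these values.

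Between the lines without doxycycline 3 of the 7 were higher in B11 (CFD, CD55 and CD59) and 1 was lower (C3), against 23.5% and 23.6% of all genes. At 1 ug/ml 4 were higher (CFD, C3AR1, C5AR1 and CD55) and C3 alone was lower, against 15% and 14.8%. At 10 ug/ml 2 were higher (CFD and CD55) and 2 were lower (C3 and C5AR1), against 16.4% and 16%. The C5AR1 difference at 10 ug/ml was -0.49 (SE 0.17, adjusted p = 0.042) and was called in 7 of 15 alternatives.

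The difference of the responses at 10 against 0 ug/ml was called lower for 2 of the 7 genes (CFD and C3) and higher for none, against 13.8% lower and 16% higher over all genes. At 1 against 0 ug/ml it was higher for 2 (C3AR1 and C5AR1) and lower for 4 (CFD, C3, CD46 and CD59), against 14.3% higher and 11.6% lower, and the split of 2509 higher to 2035 lower over all genes became 3062 to 1555 with TPM over named IDs. CD46 was at -0.45 (SE 0.16, adjusted p = 0.0451), called in 7 of 23 alternatives, and CD59 at -1.0 (SE 0.28, adjusted p = 0.0161), called in 22 of 23. Without plates B and C at 1 ug/ml, which leaves 1 library there, C3, CD46 and CD59 were no longer called (-1.13, -0.23 and -1.05). These comparisons share libraries, since the same untreated groups enter several of them.

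**Figure D4:**
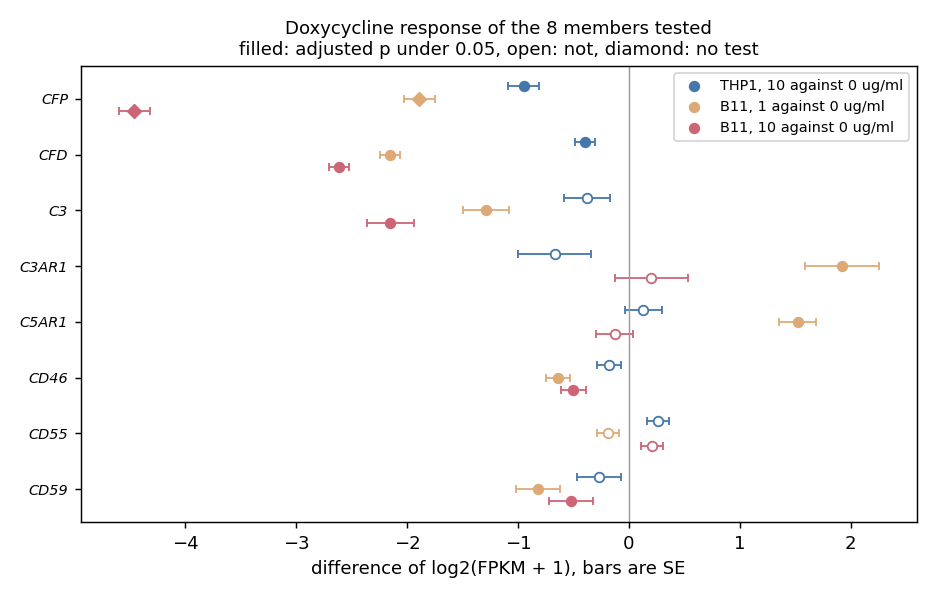
Difference of log2(FPKM + 1) with its SE for the 8 genes that passed the filter, for THP1 at 10 against 0 ug/ml and for B11 at 1 and 10 against 0 ug/ml. Filled circles passed an adjusted p of 0.05, open circles did not, and diamonds are CFP in B11, which was not tested. C3AR1 and C5AR1 lie right of 0 at 1 ug/ml (1.92 and 1.52) and near 0 at 10 ug/ml (0.20 and -0.13), while CFD lies at -2.15 and -2.61.

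Among 49 other complement genes, 19 passed the filter, 24 stayed below 1 FPKM in all libraries and 12 of those were listed at 0 throughout. CFI, the protease that cuts C3b, and C4BPB, a plasma regulator, were among the genes at 0. In B11 at 10 against 0 ug/ml 4 of the 19 were higher and 6 lower, against 21.6% and 21.3% of all genes. At 1 against 0 ug/ml 5 were higher and 6 lower, against 19.8% and 17.3%. Without plates B and C at 1 ug/ml, which leaves 1 library there, fewer were called, both of the 19 and over the whole table. C1S, a protease of the classical pathway, had 0.4145, 0 and 0.4453 FPKM in B11 before treatment, 3.917, 3.835 and 4.524 at 1 ug/ml and 6.243, 8.79 and 6.842 at 10 ug/ml. It rose by 2.0 (SE 0.26, adjusted p = 2.58e-05) and 2.70 (SE 0.26, adjusted p = 9.65e-07), to a mean of 7.292 ± 1.33 beside 7.97 ± 2.28 in untreated THP1. C5, the precursor of C5a, was 10.38 ± 1.56, 4.079 ± 0.166 and 3.153 ± 0.391 FPKM over the doses in B11, and fell by 1.45 at 10 ug/ml (SE 0.15, adjusted p = 2.21e-06). MASP2, a protease of the lectin pathway, fell by 1.40 (SE 0.16, adjusted p = 4.28e-06). C5AR2, the second C5a receptor, fell from 6.692 ± 0.909 to 2.261 ± 0.261 FPKM (-1.23, SE 0.15, adjusted p = 9.88e-06), whereas C5AR1 was not called in that comparison.

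ITGAM, the alpha chain of complement receptor 3, was another gene with its highest level at 1 ug/ml. B11 had 3.264, 2.166 and 4.681 FPKM untreated, 24.46, 28.38 and 30.72 at 1 ug/ml and 9.65, 14.35 and 9.932 at 10 ug/ml. ITGAM rose by 2.76 at 1 ug/ml (SE 0.20, adjusted p = 5.17e-08) and fell by 1.24 from 1 to 10 ug/ml (SE 0.20, adjusted p = 0.000897), which left it 1.51 above untreated B11 (SE 0.20, adjusted p = 2.21e-05). With plate A alone in the 1 ug/ml group its fall was -1.07 and not called (adjusted p = 0.0747). Its partner chain ITGB2 was at 769.4 ± 66.3, 899 ± 31.9 and 725.1 ± 40.5 FPKM in B11, a rise of 0.23 at 1 ug/ml (SE 0.06, adjusted p = 0.00759) that was not called without plates B and C at that dose (0.17, adjusted p = 0.203). ITGAX, the alpha chain of complement receptor 4, was at 39.57 ± 4.5, 49.88 ± 2.52 and 35.86 ± 4.26, and its difference at 1 ug/ml was 0.33 (SE 0.13, adjusted p = 0.0631). C1QBP, a mitochondrial and cell surface protein that binds C1q, rose by 0.80 at 10 ug/ml (SE 0.13, adjusted p = 0.000193).

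In THP1 1 of the 19, ITGB2, was lower at 10 ug/ml (-0.28, SE 0.06, adjusted p = 0.0389), and at 1 ug/ml limma called 0 of the 19, with 0 at an unadjusted p under 0.05. That ITGB2 call held in 6 of 16 alternatives and was lost when any 1 of the 6 plates compared was left out. Between the lines 4 of the 19 were higher in B11 and 9 lower without doxycycline, against 23.5% and 23.6% of all genes. At 1 ug/ml 2 were higher and 7 lower, against 15% and 14.8%, and at 10 ug/ml 2 and 8, against 16.4% and 16%. One of the 4 higher without doxycycline, C1R, would not have passed the filter without untreated B11, the group where it was highest, and its call lends no support. The other 18 genes reached 1 FPKM in at least 3 libraries outside their highest group. C2, which forms the classical C3 convertase, was lower in B11 at all 3 doses, with log2 differences of -1.48 (SE 0.17, adjusted p = 4.68e-06), -1.50 (SE 0.17, adjusted p = 1.14e-05) and -1.47 (SE 0.17, adjusted p = 1.11e-05). CD93, first described as a C1q receptor, was lower at all 3 doses too, at -1.27, -1.58 and -1.30 (SE 0.08 each, adjusted p = 5.72e-09, 2.97e-09 and 1.49e-08). CLU, the fluid-phase regulator clusterin, was at -1.82, -3.08 and -2.15 (SE 0.35 each, adjusted p = 0.000569, 1.12e-05 and 0.000256). C1QA, a chain of C1q, was at 6.242 ± 1.63 FPKM in untreated THP1 and 1.22 ± 0.596 in untreated B11, and it was listed at 0 in the 3 B11 libraries at 10 ug/ml.

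The difference of responses was called for 3 higher and 4 lower of the 19 at 10 ug/ml, against 16% and 13.8% of all genes. At 1 ug/ml it was called for 5 higher and 3 lower, against 14.3% and 11.6%. Fewer of the 19 were called without plates B and C of B11 at that dose. That fit has 1 library in the group, and no share of all genes is given for it. Among them were C1S (2.83, SE 0.37, adjusted p = 4.19e-05) and MASP2 (-1.79, SE 0.22, adjusted p = 2.52e-05) at 10 ug/ml and ITGAM (2.60, SE 0.28, adjusted p = 8.26e-06) at 1 ug/ml. From 1 to 10 ug/ml in B11 0 were higher and 3 were lower, which were ITGAM, ITGB2 (-0.31, SE 0.06, adjusted p = 0.00323) and ITGAX (-0.47, SE 0.13, adjusted p = 0.0304), against 5.69% and 7.12% of all genes. Without plates B and C at 1 ug/ml none of the 3 was called (adjusted p = 0.0747, 0.155 and 0.318).

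**Figure D5:**
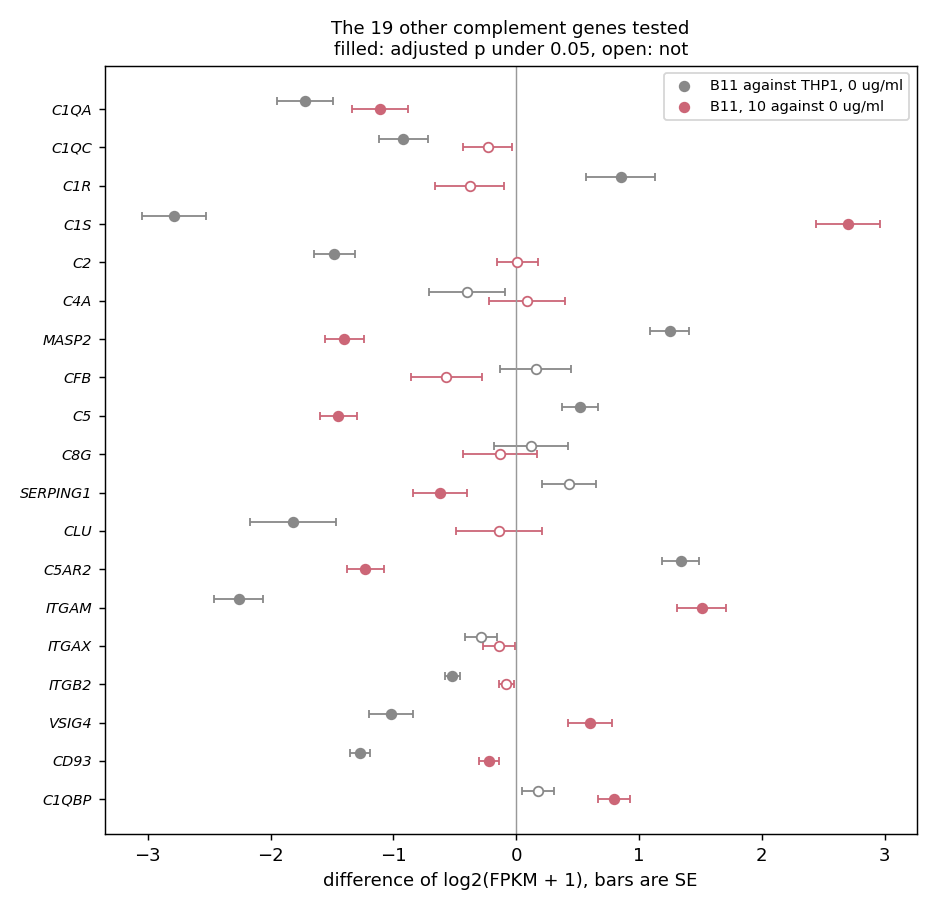
Difference of log2(FPKM + 1) with its SE for the 19 other complement genes that passed the filter, in grey for B11 against THP1 without doxycycline and in red for B11 at 10 against 0 ug/ml. Filled circles passed an adjusted p of 0.05. C1S and ITGAM lie left of 0 in grey (-2.79 and -2.26) and right of 0 in red (2.70 and 1.51), and C5, MASP2 and C5AR2 have the opposite order. The untreated B11 libraries enter both differences with opposite signs, so the 2 are not independent.

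CFD lies at the end of a cluster of myeloid protease genes on chromosome 19, in the order AZU1, PRTN3, ELANE and CFD within 38.5 kb, with 3.40 kb between ELANE and CFD. ELANE, neutrophil elastase, was at 6490 ± 455 FPKM in untreated B11 and 2949 ± 12.1 at 10 ug/ml, a fall of 1.14 (SE 0.06, adjusted p = 6.92e-10). AZU1, azurocidin, fell by 1.39 (SE 0.05, adjusted p = 4.29e-11). PRTN3, proteinase 3, was at 3709 ± 580 and 3193 ± 18.2 FPKM, a difference of -0.20 (adjusted p = 0.0924). Like CFD, ELANE and AZU1 were higher in untreated B11 than in untreated THP1, by 1.76 (SE 0.06, adjusted p = 6.42e-12) and 0.87 (SE 0.05, adjusted p = 4.7e-09).

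CD55, CR1 and CD46 lie within 474.1 kb on chromosome 1, in the cluster of complement regulators that also holds C4BPB, C4BPA, CR2 and CR1L over 706.7 kb. The last 4 had group means of at most 0.3733 FPKM. CD55 and CD46, at the ends of the 474.1 kb, had different orders over the groups, with CD55 higher in B11 at all doses and CD46 called different between the lines at none. Without plate A of B11 at 1 ug/ml CD46 was called lower in B11 at that dose (-0.38, adjusted p = 0.0217).

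By Pearson r of log2(FPKM + 1) over the 18 libraries, among 10295 protein-coding genes, the 5 genes most like CFP were TXNIP (0.983), APOBR (0.972), SASH1 (0.966), RAB11FIP1 (0.962) and SAMHD1 (0.960). TXNIP, a regulator of thioredoxin, had group means of 334.4, 334.6 and 252.6 FPKM in THP1 and 713.1, 404.3 and 110.7 in B11 over the doses. Most like CFD were GRN (0.985) and PLD3 (0.985), and most like C3 were S100A9 (0.971) and PRAM1 (0.969). C3AR1 was nearest to MYBPH (0.923) and PARP14 (0.891), and C5AR1 to PARP14 (0.903) and NLRP12 (0.900). CD55 was nearest to ZNF438 (0.982) and DNAJC1 (0.978), CD46 to PRUNE2 (0.869) and RPS3A (0.866), and CD59 to NAA80 (0.867) and COQ8A (0.852). Between the genes themselves r was 0.769 for CFP with CFD, 0.803 for C3AR1 with C5AR1 and -0.846 for C3 with CD55. These values are taken over libraries that fall into 6 groups, so differences between group means enter them. They are a description of this table.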

How the data were processed

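Total RNA of 18 libraries was sequenced, 3 plates in each of 6 groups given by the sample titles. The deposited table holds 1 FPKM value per gene and library for 60658 Ensembl IDs. Per the submitters' processing notes, the authors aligned reads with HISAT2 to GRCh38 and made the values with Cuffnorm. Not given in the sources used here were versions, annotation, scaling option and strand. The unit is absent from the header. FPKM was taken from the tool and from values that summed to 1.01 to 1.20 M per library. GENCODE release 29 on GRCh38 named 57047 IDs, and 3611 were unnamed. No column was left unmatched (0).

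Read counts were not used. Relative depth was estimated from genes below 1 FPKM by their ratios to 1 untreated THP1 plate, and was 0.842 to 1.22 times the mean. The ratio taken was the median of those within 0.4 (log2) of it, reached in steps from equal depth. The estimate is rough: in the other 17 libraries 435 to 732 genes lay within 0.4 (log2) of that ratio, and 7.8% to 10.8% of the ratios lay within 0.02 of it. The lower levels, such as those of CR1 and C5AR1, rest on few fragments.

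Values were taken as log2(FPKM + 1), genes that reached 1 FPKM in 3 or more libraries were kept, and 6 group means were fitted by limma 3.58.1 (R 4.3.3) using an intensity trend, 12 residual degrees of freedom and Benjamini-Hochberg adjustment within each of 10 comparisons. The fit was tested on simulated data. The members and lists were chosen with earlier results of these data known. Named genes were the 9 members, NRAS, chromosome neighbours, up to 4 called genes with the smallest p of the other complement list per comparison, and those of that list reaching a group mean of 10 FPKM. CD14, LYZ, CD68, CSF1R, SPI1, HBB, C1R, FCN1, CFI and GPR108 were named after their values were seen. Likeness was taken over protein-coding genes with a group mean of at least 5 FPKM. Alternatives covered the pseudocount, filter, scaling, variance trend, libraries in the fit, the letter as a block, and single libraries left out, while a fit without plates B and C of the 1 ug/ml B11 group was chosen after seeing the data. Promoters are from RefSeq (GRCh38.p14). Plots used matplotlib 3.10.9 and Python 3.11.15.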

Additional observations from a re-analysis of the deposited data

Results flagged for a closer look

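The responses of B11 and THP1 to doxycycline were compared by a test of the difference itself (limma, Benjamini-Hochberg adjusted over all genes tested). Of the 7 genes tested other than CFP it was called for 6 at 1 ug/ml, and for 2 of those at 10 ug/ml. Over all genes 14.3% were called higher and 11.6% lower at 1 ug/ml, and 16% and 13.8% at 10 ug/ml. The call of CD46 held in 7 of 23 alternatives. At 10 against 0 ug/ml the B11 response minus the THP1 response was -2.21 for CFD (SE 0.12, adjusted p = 7e-09) and -1.77 for C3 (SE 0.30, adjusted p = 0.00043). At 1 against 0 ug/ml it was -1.94 for CFD (SE 0.12, adjusted p = 2.9e-08), -1.27 for C3 (SE 0.30, adjusted p = 0.00584), -0.45 for CD46 (SE 0.16, adjusted p = 0.0451) and -1.0 for CD59 (SE 0.28, adjusted p = 0.0161). For the receptors at that dose it was 2.13 for C3AR1 (SE 0.47, adjusted p = 0.00349) and 1.83 for C5AR1 (SE 0.24, adjusted p = 5.45e-05). Of these, C3, CD46 and CD59 at 1 ug/ml were not called without plates B and C of the 1 ug/ml B11 group (adjusted p = 0.0554, 0.419 and 0.0517). Since B11 is 1 clone, the clone and the transgene cannot be told apart.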

How the results depend on the processing

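Of 1388 recomputed differences of single genes, 1314 were unchanged, 55 were no longer called, 4 became called and 15 changed sign, and the causes were not tested. Unchanged meant the same direction and the same side of the threshold. For CFP in comparisons that hold B11, which had no test, it meant the same direction and a shift below its largest group SD. Without plates B and C of the 1 ug/ml B11 group the genes called fell to 4071 for B11 at 1 against 0, 611 for B11 at 10 against 1 and 2704 for B11 against THP1 at 1 ug/ml, with 1 library left in that group. Of the 7 genes other than CFP, fewer were then called for B11 at 10 against 1 and for the difference of responses at 1 ug/ml. CD46 at 10 against 1 turned to -0.08.

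For THP1 at 1 against 0 ug/ml, 2 genes were called. The count was 0 with a pseudocount of 0.5, 23 with no filter, 1 with a mean of at least 5 FPKM, 1 with each of the 3 rescalings (median of ratios, TPM, and TPM over named IDs), 7 with no intensity trend, 0 with the replicate letter as a block, and 0 to 4 with 1 library left out. For THP1 at 10 against 0, 179 genes were called, 46 with only the groups compared in the fit and 69 to 119 with 1 library left out. Of the 8 genes tested there, 1 (CFP) was called with no filter, with no trend, with only the groups compared, and with the replicate letter as a block, and 1 to 2 with 1 library left out. For B11 at 10 against 1 the genes called ranged from 1482 to 1730 with 1 library left out. A filter at a mean of at least 5 FPKM dropped C3AR1 and C5AR1. No call of the other 5 genes changed with it there or for B11 against THP1 at 1 ug/ml.

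In THP1 at 1 against 0, leaving out 1 library turned the sign for C3 (-0.16 to 0.10), CD55 (-0.08 to 0.06), CD59 (-0.03 to 0.37) and C3AR1 (-0.38 to 0.07). In B11 at 10 against 0 they turned for C5AR1 (-0.25 to 0.02) and C3AR1 (-0.16 to 0.50), between the untreated lines for C3AR1 (-0.55 to 0.00), and for the difference of responses at 10 ug/ml for CD55 (-0.13 to 0.02, and 0.01 under TPM). None of these was called. The labels name no batch behind the plate letters. Deviations from the group means correlated at -0.07 to 0.09 over 45 same-letter pairs and at -0.11 to 0.07 over 90 other-letter pairs. Of 18 libraries, 7 correlated best with their own letter. With the replicate letter as a block, 7422 genes were called for B11 at 10 against 0 (7520 without it), and CFD in THP1 at 10 ug/ml (adjusted p = 0.0633), C5AR1 between the lines at 10 ug/ml (0.0526) and CD46 in the difference of responses at 1 ug/ml (0.0674) were no longer called. No count-based test could be fitted, since the deposited values are FPKM.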
